A study of Mus musculus with 10 samples.

Results

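Podocytes are the octopus-shaped epithelial cells that wrap the capillaries of the renal glomerulus, and the 8 genes described here were chosen by name as podocyte genes, out of 18193 genes measured on mouse arrays. They are Nphs1, Plce1, Ptpro, Synpo, Actn4, Podxl, Wt1 and Cdkn1c. Each was represented by the probe set of highest mean over all arrays, with no filter on level, and all 8 were found. Total RNA was taken from renal cortex of FVB/N mice, 10 in all and 20 weeks old, each after 2/3 kidney ablation and uninephrectomy. From 6 weeks after the ablation, which was 4 weeks after the uninephrectomy, 5 mice received losartan at 500 mg/l and 5 received aliskiren at 50 mg/kg per day, each for 6 weeks. Losartan blocks the type 1 angiotensin II receptor, and aliskiren inhibits renin. Both groups carried the same surgery and both were treated, and mice without a drug were not analysed here. The comparison asks whether podocyte transcripts in the remnant kidney differ between the drugs, and whether they move from mouse to mouse with Wt1, used as a sign of how much glomerulus a piece of cortex holds.

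Podocyte foot processes interlock, and the gap between them is bridged by the slit diaphragm, a protein sheet that holds back plasma proteins. Nephrin, the product of Nphs1, spans the slit, an actin skeleton supports the foot processes, and a charged coat covers their free surface. WT1 is the transcription factor that keeps the differentiated state, and many podocyte genes are among its known targets. Loss of podocytes leads to protein in the urine and scarring of glomeruli in remnant kidneys. All values below are log2 expression values made by RMA, which sets the arrays to a common distribution, and 1 unit is a doubling. In a whole piece of cortex, fewer podocytes and less RNA per podocyte cannot be told apart. Podocytes are a minority of cortical cells, and the proximal tubule genes of a fixed list, such as Slc34a1 at a mean level of 13.17 and Lrp2 at 13.05, were high, as a check of the labelled tissue. The mean of the perirenal fat list stood apart in losartan mouse 3, at 11.41, where Adipoq, which encodes adiponectin, was at 12.96. In aliskiren mouse 3 the list mean and Adipoq were at 9.67 and 9.90. Adipoq was at 3.17 to 3.96 in 7 of the other mice and at 7.35 in aliskiren mouse 2. Losartan mouse 3 was also highest for Havcr1, a gene that injured proximal tubules switch on.

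Promoter sequences of RefSeq, on the build GRCm38.p6, were at hand for 4 of the 8 genes, Nphs1, Ptpro, Plce1 and Actn4. They were searched on both strands for GTGGGNG, a core shared by WT1 and EGR sites, and for TAATTA, a core bound by homeodomain factors. The 250 bases before the gene start are shown for 3 of the 4, Ptpro, Nphs1 and Plce1, with matches of GTGGGNG in capitals. Each sequence is given 5′ to 3′ on the strand of its gene, which is the plus strand for all 3. The regions are chr6:137252049-137252298 for Ptpro, chr7:30459808-30460057 for Nphs1 and chr19:38523947-38524196 for Plce1.
Ptpro: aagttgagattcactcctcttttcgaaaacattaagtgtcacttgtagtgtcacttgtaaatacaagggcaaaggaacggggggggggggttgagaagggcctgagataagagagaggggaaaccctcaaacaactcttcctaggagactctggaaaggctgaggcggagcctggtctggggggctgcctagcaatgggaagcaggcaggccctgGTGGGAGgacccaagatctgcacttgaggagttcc
Nphs1: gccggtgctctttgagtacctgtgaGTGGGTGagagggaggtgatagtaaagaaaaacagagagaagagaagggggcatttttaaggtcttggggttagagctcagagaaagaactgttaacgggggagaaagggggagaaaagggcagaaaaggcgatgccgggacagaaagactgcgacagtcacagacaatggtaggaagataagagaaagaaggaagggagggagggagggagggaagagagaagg
Plce1: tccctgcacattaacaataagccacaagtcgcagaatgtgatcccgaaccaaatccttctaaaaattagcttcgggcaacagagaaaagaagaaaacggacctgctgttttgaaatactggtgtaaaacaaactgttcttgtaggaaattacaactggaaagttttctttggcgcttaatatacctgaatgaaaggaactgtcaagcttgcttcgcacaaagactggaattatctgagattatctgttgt
Ptpro held GTGGGAG from 35 to 29 bases before its start, and Nphs1 held GTGGGTG from 225 to 219 bases before it. Plce1 had no match, and the Actn4 region held 2 matches on the opposite strand. GTGGGNG occurred in 28.1% of the 32851 promoters of the table over the same length of 250 bases. TAATTA was in none of the 4 regions and in 4.84% of all promoters. A match describes the letters and shows no binding.

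None of the podocyte genes separated the drugs. Under aliskiren 6 of the 8 had a lower mean and 2, Wt1 and Cdkn1c, a higher one, with a median difference of -0.08 against -0.01 over all 18193 genes, of which 53.0% had a lower mean. In the limma fit across all genes 0 of the 8 passed an adjusted p under 0.05, where 0% of all genes passed, and 0 of the 8 had an unadjusted p under 0.05, where 4.18% of all genes did. For 0 of the 8 were the groups free of overlap, against 0.748% of all genes. The 95% intervals of all 8 differences lay within 2-fold in both directions, and those of 5 lay within 1.5-fold; Ptpro, Cdkn1c and Plce1 reached further. Such intervals lay within 1.5-fold for 89.5% of all genes and within 2-fold for 97.1%. The median difference turned to 0.03, with 4 of 8 genes lower, without losartan mouse 3, and was -0.19, with all 8 lower, without losartan mouse 4.

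**Figure D1:**
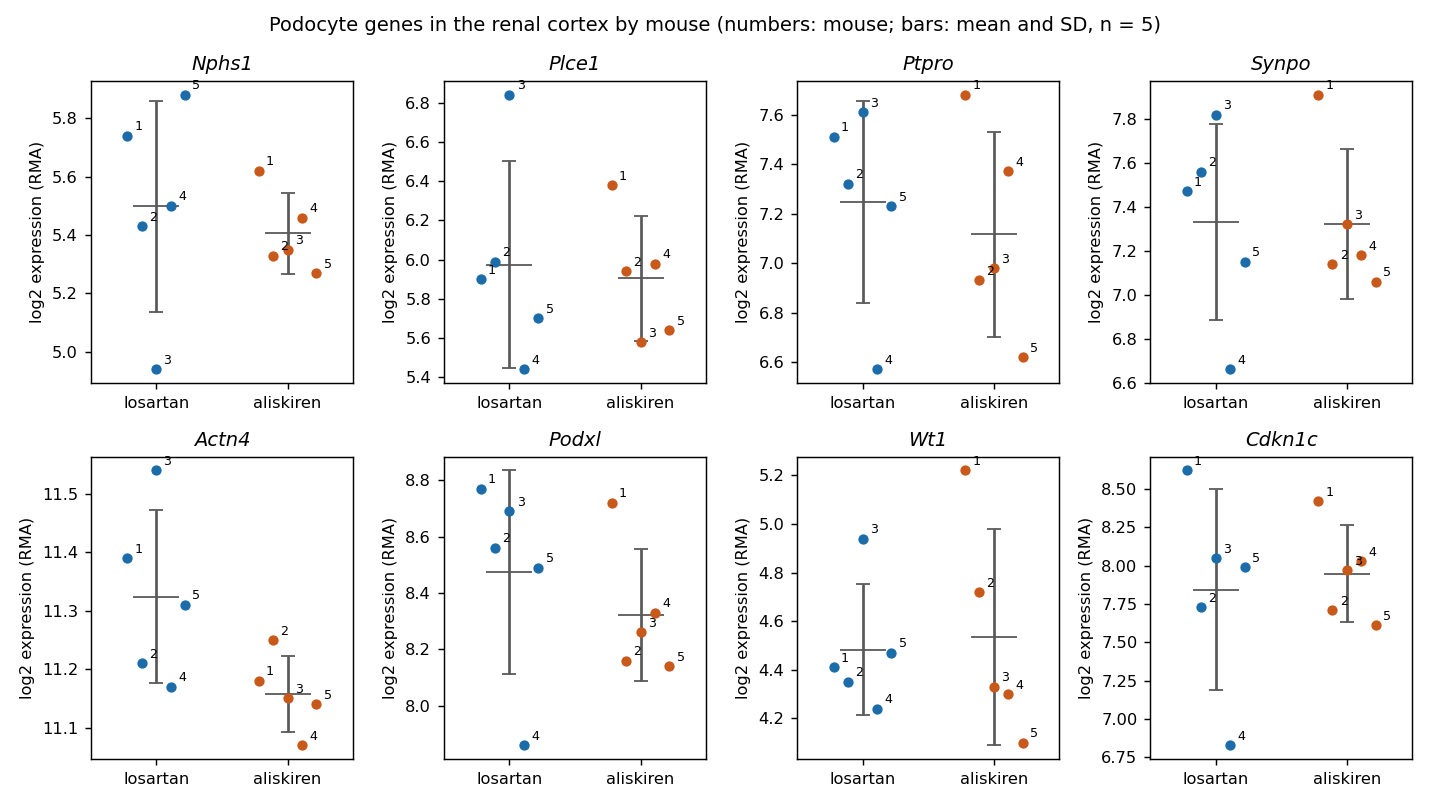
Log2 expression of the 8 podocyte genes (vertical axes, RMA units, not starting at 0) by drug, with 1 point per mouse, the mouse number beside it, and the mean and SD of 5 mice per drug as bars. The groups overlap in every panel, and losartan mouse 4 is the lowest point for Plce1, Ptpro, Synpo, Podxl and Cdkn1c.

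At the slit diaphragm, Nphs1 was measured at a low level, with a mean of 5.45 that lay below 5.53, the median level of all non-control probe sets. The losartan mice had Nphs1 values of 5.74, 5.43, 4.94, 5.50 and 5.88, and the aliskiren mice had 5.62, 5.33, 5.35, 5.46 and 5.27. Losartan mice 3 and 5 formed the lowest and highest values of all, and the aliskiren mice lay between them. The losartan mean was 5.50 ± 0.36 (SD, n = 5) and the aliskiren mean 5.41 ± 0.14 (n = 5). The difference, aliskiren minus losartan here and below, was -0.09 (SE 0.16, limma adjusted p = 0.99). This difference reached -0.23 when losartan mouse 3 was left out and 0.0055 when losartan mouse 5 was.

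Plce1 encodes phospholipase C epsilon, an enzyme that is needed for podocytes to mature. Its values were 5.90, 5.99, 6.84, 5.44 and 5.70 with losartan and 6.38, 5.94, 5.58, 5.98 and 5.64 with aliskiren. Losartan mouse 3 was the highest, aliskiren mouse 1 came next, and losartan mouse 4 was the lowest, so both extremes lay in 1 group. The difference between drugs was -0.07 (SE 0.24, limma adjusted p = 0.994), and it was 0.14 without losartan mouse 3 and -0.21 without losartan mouse 4.

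Ptpro encodes GLEPP1, a receptor tyrosine phosphatase of the podocyte's apical membrane. Its values were 7.51, 7.32, 7.61, 6.57 and 7.23 with losartan and 7.68, 6.93, 6.98, 7.37 and 6.62 with aliskiren. Each group held 1 low mouse, losartan mouse 4 and aliskiren mouse 5, which differed little from each other, while aliskiren mouse 1 and losartan mouse 3 were high. The difference between drugs was -0.13 (SE 0.23, limma adjusted p = 0.99), or -0.30 without losartan mouse 4 and -0.01 without aliskiren mouse 5.

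Among genes of the cytoskeleton, Synpo, which encodes the actin-associated protein synaptopodin, had values of 7.47, 7.56, 7.82, 6.66 and 7.15 with losartan and 7.91, 7.14, 7.32, 7.18 and 7.06 with aliskiren. The lowest mouse, losartan mouse 4, was 2.38-fold below the highest, aliskiren mouse 1, yet the group means of 7.33 ± 0.45 (SD) and 7.32 ± 0.34 nearly coincided. The difference was -0.01 (SE 0.22, limma adjusted p = 0.998), and it was -0.18 when losartan mouse 4 was left out and 0.11 when losartan mouse 3 was. A second, dimmer Synpo probe set at a mean of 4.38 had a difference of 0.28 (SE 0.12, limma adjusted p = 0.991 over all probe sets).

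Actn4 encodes alpha-actinin-4, an actin crosslinker that many cell types express besides podocytes. Its values were 11.39, 11.21, 11.54, 11.17 and 11.31 with losartan and 11.18, 11.25, 11.15, 11.07 and 11.14 with aliskiren. All 5 aliskiren mice lay below the losartan mean, but the groups overlapped, with losartan mouse 4 below aliskiren mice 1 and 2. The difference of -0.17 (SE 0.08) had the smallest p of the 8 genes and did not pass the test (unadjusted p = 0.0574, limma adjusted p = 0.986). It was -0.11 without losartan mouse 3.

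Podxl encodes podocalyxin, the negatively charged protein of the podocyte's free surface, which vascular endothelium carries too. Its values were 8.77, 8.56, 8.69, 7.86 and 8.49 with losartan and 8.72, 8.16, 8.26, 8.33 and 8.14 with aliskiren. Of the aliskiren mice 4 lay below 4 of the losartan mice, whereas aliskiren mouse 1 was among the highest and losartan mouse 4 was the lowest of all. The means were 8.48 ± 0.36 (SD) and 8.32 ± 0.23, and the difference was -0.15 (SE 0.17, limma adjusted p = 0.986). Without losartan mouse 4 it was -0.31 (limma adjusted p = 0.769) and without losartan mouse 1 -0.08. The second Podxl probe set, at a mean of 5.32, had a difference of 0.16 (SE 0.08, limma adjusted p = 0.991 over all probe sets).

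The Wt1 probe set gave the lowest level of the 8 genes, and its mean of 4.51 lay below the median of 5.53; 24.1% of genes had a lower level, and RMA values carry no detection call. Its values were 4.41, 4.35, 4.94, 4.24 and 4.47 with losartan and 5.22, 4.72, 4.33, 4.30 and 4.10 with aliskiren. Aliskiren mouse 1 and losartan mouse 3 stood highest, and 7 of the other 8 mice lay between 4.10 and 4.47. The difference was 0.05 (SE 0.20, limma adjusted p = 0.996), and it was -0.12 without aliskiren mouse 1 and 0.16 without losartan mouse 3.

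Cdkn1c encodes p57, the cyclin-dependent kinase inhibitor that marks podocytes which have left the cell cycle. It varied most, with 8.62, 7.73, 8.05, 6.83 and 7.99 with losartan and 8.42, 7.71, 7.97, 8.03 and 7.61 with aliskiren. Losartan mice 1 and 4 were the highest and lowest of all, 3.47-fold apart. The means were 7.85 ± 0.65 (SD) and 7.95 ± 0.32, a difference of 0.10 (SE 0.28, limma adjusted p = 0.994), which turned to -0.15 without losartan mouse 4 and was 0.30 without losartan mouse 1. The SD within drugs, pooled over both groups, was 0.51 for Cdkn1c, and 95.6% of all genes had a smaller one. It was 0.12 for Actn4, with 24.9% of genes below, and the other 6 genes lay between 0.28 and 0.44, against a median of 0.16 over all genes.

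**Figure D2:**
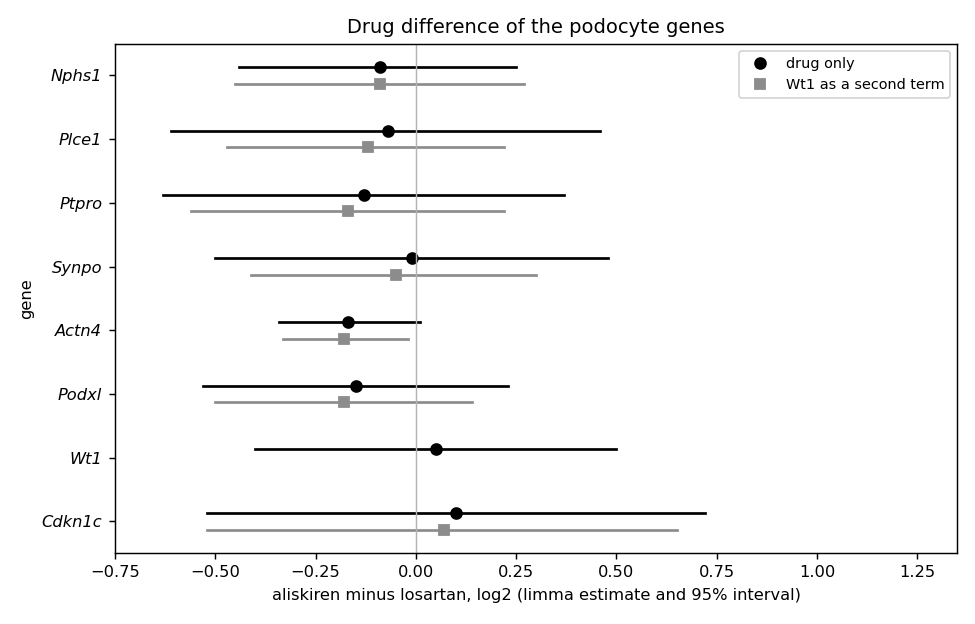
Difference between aliskiren and losartan for each of the 8 genes (horizontal axis, log2, limma estimate with its 95% interval), from a fit with drug only (black) and with the Wt1 value as a second term (grey, not defined for Wt1 itself). All black intervals include 0, and the widest belongs to Cdkn1c; of the grey ones only that of Actn4, from -0.33 to -0.02, does not.

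The same mice were high and low for several of the genes. Losartan mouse 4 had the lowest value for 5 of the 8 genes, Plce1, Ptpro, Synpo, Podxl and Cdkn1c. Aliskiren mouse 1 had the highest value for 3, Wt1, Synpo and Ptpro, losartan mouse 3 for Plce1 and Actn4, and losartan mouse 1 for Podxl and Cdkn1c. Over the 10 mice Podxl and Ptpro had Pearson r = 0.94 and Spearman rho = 0.93, with permutation p = 0.00011 and 0.00038 (two-sided, 100000 resamples). Adjusted over the 28 pairs of the 8 genes these were 0.00308 and 0.00392. Without losartan mice 1 and 4, the mice farthest from the Podxl median, r was 0.92. Of all other genes 0.033% had an r with Podxl at least as high.

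Podxl and Synpo had r = 0.89 and rho = 0.88 (permutation p = 0.00071 and 0.00166, adjusted 0.00663 and 0.0093), and r = 0.88 without losartan mice 1 and 4. For Podxl and Cdkn1c r was 0.87 and rho 0.92 (permutation p = 0.00063 and 0.00056, adjusted 0.00663 and 0.00392), and r was 0.69 without these mice. Ptpro and Synpo had r = 0.87 and rho = 0.92 (permutation p = 0.00099 and 0.00053, adjusted 0.00693 and 0.00392), with r = 0.75 without losartan mouse 4 and aliskiren mouse 1. Removing the drug means left r at 0.94 for Podxl with Ptpro, 0.92 with Synpo and 0.94 with Cdkn1c. Ptpro and Cdkn1c had r = 0.82 and rho = 0.93 (permutation p = 0.00134 and 0.00033, adjusted 0.0075 and 0.00392), with r = 0.67 without losartan mouse 4 and aliskiren mouse 5. Synpo and Cdkn1c were the loosest of these pairs, with r = 0.75 and rho = 0.78 (permutation p = 0.0138 and 0.011, adjusted 0.043 and 0.0385). Their r was 0.54 without losartan mouse 4 and 0.37 without that mouse and aliskiren mouse 1. These are the mice farthest from the Synpo median, and leaving them out also narrows the range of Synpo. Of other genes 6.28% had an r with Synpo at least as high as that of Cdkn1c over the 10 mice. Plce1 had r = 0.84 and rho = 0.78 with Synpo (permutation p = 0.00218 and 0.0105, adjusted 0.0102 and 0.0385). With Ptpro it had r = 0.78 and rho = 0.82 (permutation p = 0.00529 and 0.00581, adjusted 0.0212 and 0.0271). Its r of 0.70 with Podxl (permutation p adjusted 0.0515) and 0.50 with Cdkn1c (adjusted 0.249) did not pass. The pattern was not particular to podocyte genes: the mean of the endothelial list described below had r = 0.92 with Podxl over the 10 mice. The second, dimmer probe sets varied differently: over the 10 arrays the r between both probe sets of a gene was 0.17 for Podxl, 0.43 for Ptpro and -0.34 for Synpo.

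**Figure D3:**
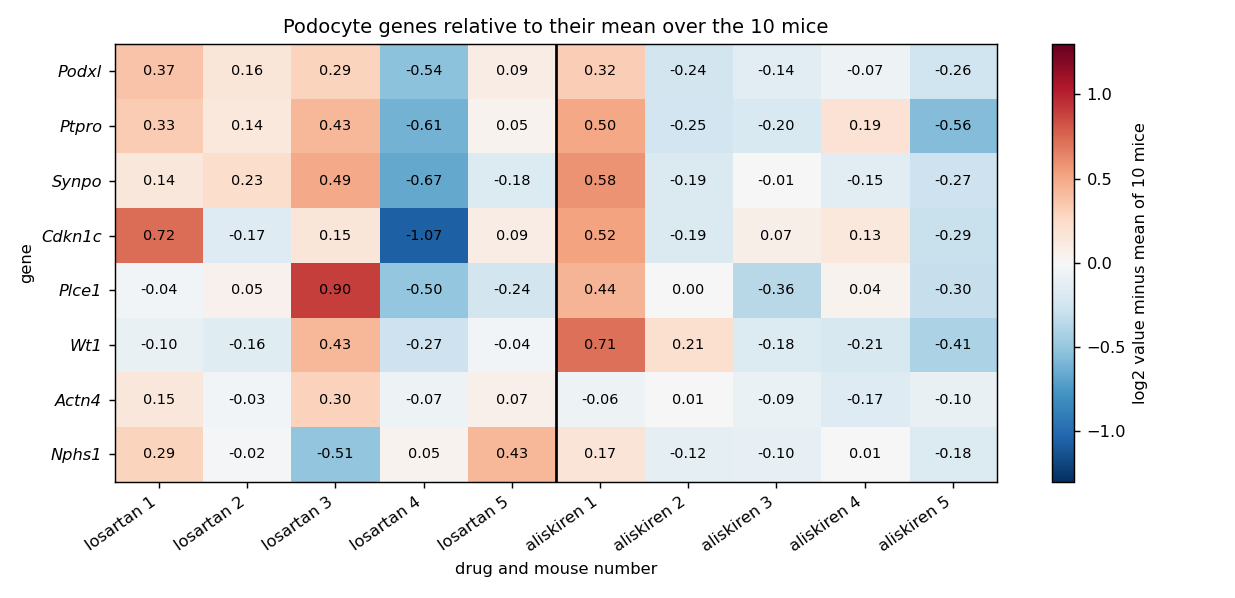
Each gene's log2 value minus its mean over the 10 mice (colour and printed number), by gene (vertical) and by drug and mouse number (horizontal). The column of losartan mouse 4 is negative for Podxl, Ptpro, Synpo, Cdkn1c, Plce1, Wt1 and Actn4, and the Nphs1 row follows the others least.

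Relations to Wt1 were looser than those to Podxl for Synpo, Ptpro and Cdkn1c. The permutation tests are two-sided and the adjusted values are over the same 28 pairs. Plce1 had r = 0.79 and rho = 0.70 with Wt1 (permutation p = 0.0097 and 0.0311, adjusted 0.0339 and 0.0799), and Synpo had r = 0.74 and rho = 0.67 (permutation p = 0.0154 and 0.04, adjusted 0.043 and 0.0799). For Ptpro r was 0.66 and rho 0.68 (permutation p = 0.0342 and 0.035, adjusted 0.0798 and 0.0799), and for Podxl they were 0.56 and 0.67 (permutation p = 0.0917 and 0.0399, adjusted 0.171 and 0.0799). Cdkn1c at r = 0.46, rho = 0.61 (permutation p = 0.183 and 0.0686, adjusted 0.266 and 0.128) and Actn4 at r = 0.44, rho = 0.71 (permutation p = 0.198 and 0.0259, adjusted 0.266 and 0.0799) did not pass. Nor did the r of Ptpro and Podxl pass after adjustment, and no rho with Wt1 passed for any of the genes. Nphs1, the gene of the slit protein itself, did not pass either, with r = -0.11 and rho = 0.12 (permutation p = 0.752 and 0.758, adjusted 0.763 and 0.787).

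Aliskiren mouse 1 and losartan mouse 3 were the arrays farthest from the Wt1 median. Without them r with Wt1 was 0.48 for Plce1, 0.23 for Synpo, 0.33 for Ptpro, 0.23 for Podxl, 0.27 for Cdkn1c, 0.52 for Actn4 and 0.22 for Nphs1. The r of Actn4 was not lower without them. Leaving out the mice farthest from the Wt1 median narrows the range of Wt1, which can lower r by itself. These values therefore cannot show whether a relation rests on those mice. With any 1 mouse left out, r with Wt1 ran from 0.77 to 0.81 for Plce1 and from 0.59 to 0.81 for Synpo, the 2 whose r passed. The r between Podxl and Ptpro was 0.91 without the same pair of mice, between Podxl and Synpo 0.87 and between Podxl and Cdkn1c 0.87. This pair holds the extremes of Wt1 and not those of Podxl, so these r are not a like comparison with those to Wt1. Without losartan mice 1 and 4, the farthest from the Podxl median, they were 0.92, 0.88 and 0.69.

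In a limma fit with drug and Wt1 as terms, the slope per log2 unit of Wt1 was 0.96 (SE 0.24) for Plce1, 0.80 (SE 0.24) for Synpo, 0.77 (SE 0.27) for Ptpro, 0.51 (SE 0.22) for Podxl, 0.65 (SE 0.40) for Cdkn1c, 0.20 (SE 0.11) for Actn4 and -0.07 (SE 0.25) for Nphs1. Without aliskiren mouse 1 and losartan mouse 3 it was 0.55 (SE 0.39) for Plce1, 0.35 (SE 0.54) for Synpo, 0.63 (SE 0.62) for Ptpro, 0.35 (SE 0.52) for Podxl, 0.77 (SE 0.94) for Cdkn1c, 0.29 (SE 0.21) for Actn4 and 0.25 (SE 0.32) for Nphs1. The estimates were thus lower for Plce1, Synpo, Ptpro and Podxl and higher for Cdkn1c, Actn4 and Nphs1. The error was wider for all 7, so these changes cannot tell the genes apart. With all mice none of the 7 slopes passed after adjustment over the 18192 other genes, where 0% of genes passed; the limma adjusted p of the first 4 lay between 0.151 and 0.265. At an unadjusted p under 0.05 the slope was positive for 4 of the 7, Plce1, Synpo, Ptpro and Podxl, where 11.1% of all genes had such a positive slope and 6.99% a negative one. Such slopes were not particular to podocyte genes. Of the lists described below, 8 of 9 tubular injury genes and 6 of 11 endothelial genes had a positive one. It was 2 of 8 for mesangial genes and 0 of 9 for proximal tubule genes, of which 2 had a negative one. With Wt1 held equal the difference between the drugs was -0.18 (SE 0.14) for Podxl, -0.17 (SE 0.17) for Ptpro, -0.12 (SE 0.16) for Plce1, -0.18 (SE 0.07) for Actn4, -0.09 (SE 0.16) for Nphs1, -0.05 (SE 0.16) for Synpo and 0.07 (SE 0.26) for Cdkn1c, all at a limma adjusted p of 0.765 or above. The interval of Actn4 was the only 1 of the 7 without 0, at -0.33 to -0.02 (unadjusted p = 0.03), where 6.28% of all genes had an unadjusted p under 0.05.

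With Podxl in place of Wt1, an anchor chosen after the low Wt1 level was seen, the slope was 1.59 (SE 0.20) for Cdkn1c, 1.26 (SE 0.17) for Ptpro, 1.20 (SE 0.19) for Synpo, 1.02 (SE 0.34) for Plce1, 0.73 (SE 0.32) for Wt1, 0.21 (SE 0.13) for Actn4 and 0.10 (SE 0.30) for Nphs1. Of these 7, 5 had a positive slope at an unadjusted p under 0.05, against 7.18% of all genes, and 0 passed after adjustment, where the share of all genes was 0.0055%; the limma adjusted p was 0.0623 for Cdkn1c and 0.0869 for Ptpro. The 1 gene that passed was Mdk, which encodes the growth factor midkine (slope 1.57, SE 0.16, limma adjusted p = 0.0285), and it had a slope of 1.51 without losartan mouse 4 (adjusted p = 0.346). With 1 mouse left out, no gene at all passed in 7 of 10 fits. With the mean of Podxl and Synpo as the anchor, 1 of the other 6 genes passed, Ptpro, at a slope of 1.10 (SE 0.16, limma adjusted p = 0.0484), where 0.242% of all genes had a positive slope that passed. Cdkn1c (adjusted p = 0.0756), Plce1 (0.097), Wt1 (0.164), Actn4 (0.381) and Nphs1 (0.935) did not pass.

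**Figure D4:**
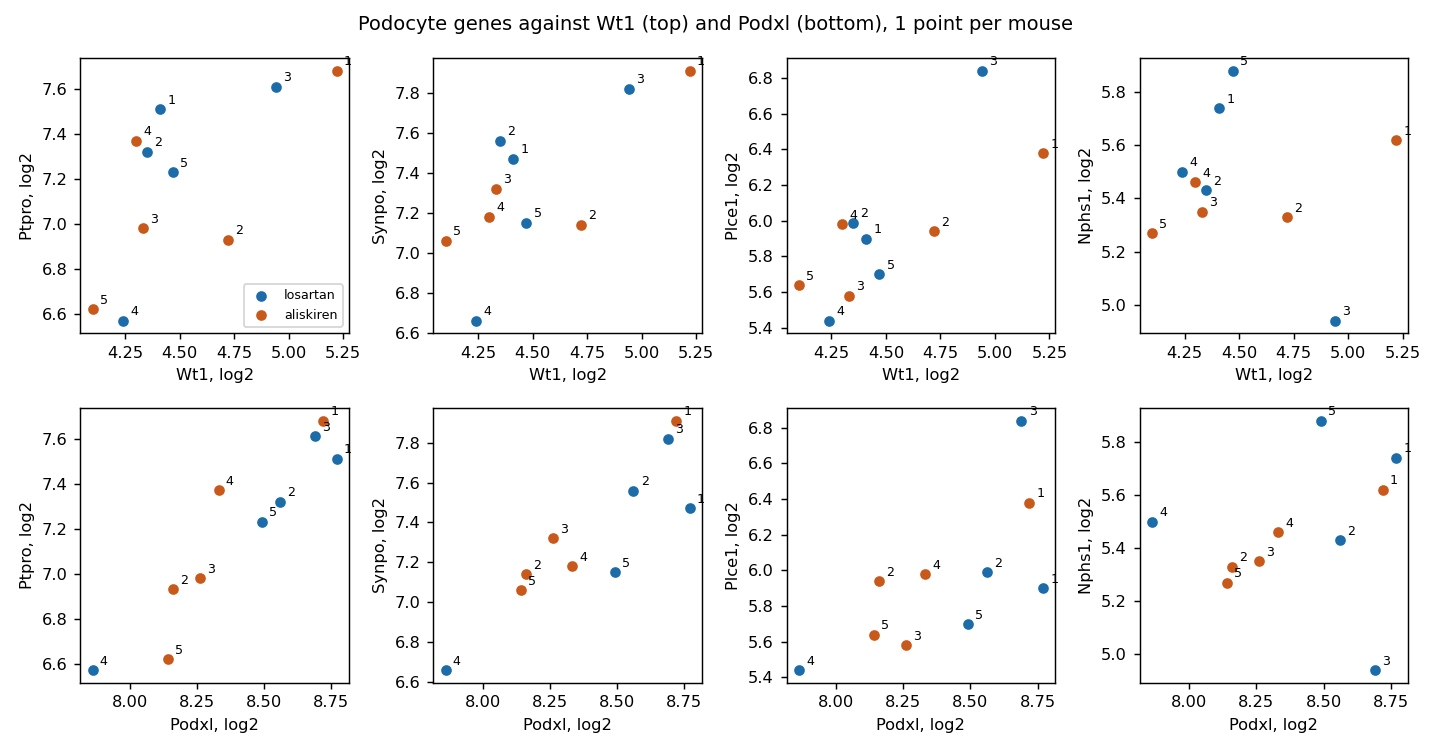
Log2 values of Ptpro, Synpo, Plce1 and Nphs1 (vertical axes) against Wt1 (top row) and Podxl (bottom row), 1 point per mouse with its number, coloured by drug. Against Wt1 aliskiren mouse 1 and losartan mouse 3 lie far to the right. Ptpro and Synpo tend to lie higher in mice with more Podxl, though not mouse by mouse. Losartan mouse 1 has the highest Podxl but not the highest Ptpro or Synpo.

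The genes most like Wt1 were other ones than those most like Podxl. Among genes whose mean level reached 5.53, the 10 with the highest Pearson r with Wt1 over the 10 mice were Alkbh2, 4930453N24Rik, Dmac1, Lgalsl, Nostrin, Pogk, Cdk6, Nid2, Tceal1 and Cct5, at r from 0.90 to 0.93. Without losartan mouse 3 and aliskiren mouse 1 their r ran from 0.57 for Lgalsl to 0.86 for Dmac1. The 10 highest with Podxl, a list added after the values were seen, were Mdk, Plpp1, Tmem11, Cnnm2, Smc3, Tmem204, Tek, Gpsm1, Igfbp7 and Emcn, at r from 0.92 to 0.96, and without the same pair of mice from 0.89 for Emcn to 0.97 for Mdk. That pair was picked by Wt1, so the ranges without it are not a like comparison. Tek and Emcn, which encode an angiopoietin receptor and endomucin, are endothelial genes.

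Wider podocyte lists, which hold the 8 genes too, had no gene that passed for drug in limma. Of 12 measured genes of the slit diaphragm and its signalling, 10 had a lower and 2 a higher mean with aliskiren, at a median of -0.06; without losartan mouse 3 the count lower was 5 and the median 0.03. Without losartan mouse 4 the medians of this list and the next were both -0.10. Of 12 genes of the cytoskeleton and apical surface 8 were lower, at a median of -0.03, and 5 without losartan mouse 3. Of 7 transcription factors 1 was lower, at a median of 0.05, and of 10 receptors and secreted factors 5 were, at 0.01. The median of the transcription factors was 0.11 without losartan mouse 3 and 0.01, with 3 lower, without losartan mouse 4. That of the receptors and secreted factors was 0.02, with 3 lower, and -0.05, with 6 lower. In these 4 lists 0 genes passed the adjusted threshold and 0 had an unadjusted p under 0.05. Tcf21, a transcription factor of podocytes and interstitial cells, had 7.52, 7.01, 7.52, 5.68 and 6.76 with losartan and 8.21, 6.55, 6.58, 6.55 and 6.79 with aliskiren, so aliskiren mouse 1 was again the highest and losartan mouse 4 the lowest.

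Among 10 genes of adhesion and the glomerular basement membrane, 4 had a lower mean with aliskiren, the median difference was 0.03, 0 passed and 1 had an unadjusted p under 0.05. Without losartan mouse 3 none of the 10 was lower and the median was 0.09, and without losartan mouse 4, 5 were lower. Col4a5, a chain of the collagen IV network of that membrane, was the only gene of the podocyte lists whose groups did not overlap; the share was 0.748% over all genes, so 1 gene among these lists is near it. Its values were 8.70, 8.91, 8.64, 8.66 and 8.82 with losartan and 9.06, 8.92, 8.97, 8.97 and 8.96 with aliskiren. Every aliskiren mouse lay above every losartan mouse, though aliskiren mouse 2 only just above losartan mouse 2. The difference was 0.23 (SE 0.07, unadjusted p = 0.00573), and it did not pass after adjustment (limma adjusted p = 0.986). Its partner chains had differences of 0.34 (SE 0.25) for Col4a3 and 0.10 (SE 0.15) for Col4a4.

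Markers of other cells also differed between mice, and losartan mouse 4 was lowest for the endothelial and mesangial lists. Endothelial genes, 11 measured, had list means from 6.86 in losartan mouse 4 to 7.72 in losartan mouse 3, and from 6.95 to 7.43 with aliskiren. Of these, 10 had a lower mean with aliskiren, at a median difference of -0.25, or all 11 at -0.37 without losartan mouse 4; 0 passed limma's adjusted threshold and 2 of the 11 had an unadjusted p under 0.05, against 4.18% of all genes. Flt1, a receptor for vascular endothelial growth factor, had -0.31 (SE 0.10, adjusted p = 0.986). The mesangial list, 8 genes, ran from 7.07 in losartan mouse 4 to 8.05 in losartan mouse 3, and from 7.13 to 7.65 with aliskiren, with 7 genes lower at a median of -0.08, or 3 at 0.02 without losartan mouse 3. The parietal epithelial list, 5 genes, ran from 7.82 to 9.43 with losartan and from 8.09 to 9.10 with aliskiren. In the fit with Havcr1 described below, 3 of these 5 had a positive slope that passed, against 7.24% of all genes, and 0 did without losartan mouse 3. Which cells gave the transcripts of this list was not tested. The proximal tubule list, 9 genes, lay between 12.95 and 13.49 with losartan and between 13.33 and 13.42 with aliskiren, lowest in losartan mouse 3. Of 6 cyclin-dependent kinase inhibitors other than Cdkn1c, 3 were higher and 3 lower with aliskiren, at a median of 0.02, or 0.09 without losartan mouse 3 and -0.04 without losartan mouse 4. The part of these cells in the podocyte values was not tested.

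Tubular injury differed widely between mice, and Plce1 had a slope on Havcr1 that passed with all mice and not without losartan mouse 3. Of 9 injury genes 5 had a lower mean with aliskiren, at a median of -0.01, or 8 at -0.35 without losartan mouse 4 and 3 at 0.22 without losartan mouse 3. Of the 8 genes of the fat list 6 did, at -0.10, or 6 at -0.30 without losartan mouse 4 and 2 at 0.64 without losartan mouse 3. This list holds Pck1, at a mean of 13.58 with SDs of 0.28 with losartan and 0.19 with aliskiren. Those of Adipoq were 4.21 and 2.93, so the genes of the list did not vary alike. Havcr1 was at 7.23, 8.69, 10.76, 6.22 and 5.41 with losartan and at 9.37, 8.53, 6.08, 6.57 and 7.82 with aliskiren, a range of 40.6-fold. Losartan mouse 3 was highest and aliskiren mouse 1 next. In a limma fit with drug and Havcr1 as terms, Plce1 had a slope of 0.21 (SE 0.04, adjusted p = 0.0131), the only 1 of the 8 genes to pass. Of all genes 7.24% had a positive slope that passed and 3.11% a negative one, so 1 of 8 is near that share. Over the 10 mice the r of Plce1 with Havcr1 was 0.86 and rho 0.81 (two-sided permutation p = 0.00124 and 0.00755, the former 0.00992 adjusted over the 8 genes). This r was 0.77 without losartan mice 3 and 5, the farthest from the median. Without losartan mouse 3 the slope was 0.15 and did not pass (limma adjusted p = 0.282), and the counts over all genes dropped from 1317 to 20 positive and from 566 to 1 negative.

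The other slopes on Havcr1 did not pass. They were 0.16 (SE 0.05, limma adjusted p = 0.0708) for Synpo, 0.14 (SE 0.05, adjusted p = 0.0926) for Wt1, 0.11 (SE 0.06) for Ptpro, 0.08 (SE 0.05) for Podxl, 0.07 (SE 0.09) for Cdkn1c and 0.04 (SE 0.02) for Actn4. Nphs1 had the opposite sign, at -0.10 (SE 0.04, limma adjusted p = 0.134), and -0.02 without losartan mouse 3; it passed only without aliskiren mouse 1, at -0.13 (adjusted p = 0.0421). Among podocyte lists, slopes on Havcr1 that passed were positive: 5 of 12 for the slit diaphragm and its signalling, Cd2ap, Tjp1, Fat1, Fyn and Plce1, 4 of 10 for adhesion and basement membrane, Lamb2, Agrn, Itgb1 and Cd151, and 1 of 12 for the cytoskeleton and apical surface, Anln. It was 0 of 7 for transcription factors and 0 of 10 for receptors and secreted factors, against 7.24% of all genes. Of the 8 genes only Plce1 was among those that passed, and which cells of the cortex gave these transcripts was not tested. Without losartan mouse 3 limma called 0 genes of these lists, where 0.11% of all genes, 20, had a positive slope that passed and 1375 one at an unadjusted p under 0.05. The tubular injury list without Havcr1 itself had 8 of 8 positive with all mice and also 0 without losartan mouse 3, which had its highest mean, 9.99. That mouse was also highest for the fat list, and the part of fat in these slopes was not tested.

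**Figure D5:**
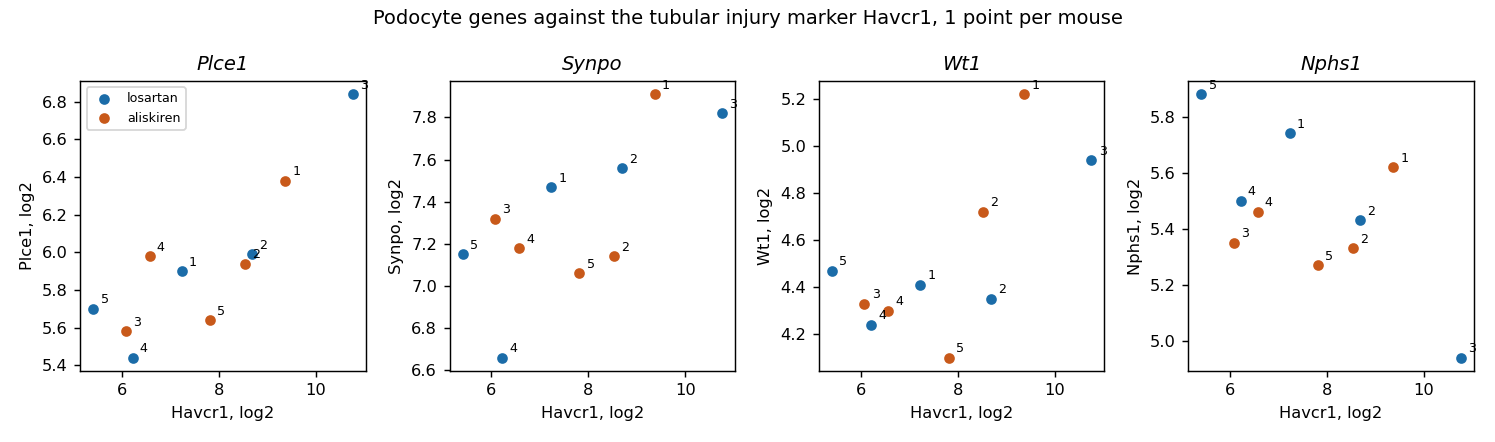
Log2 values of Plce1, Synpo, Wt1 and Nphs1 (vertical axes) against Havcr1 (horizontal axes, log2), 1 point per mouse with its number, coloured by drug. Plce1 lies higher in mice with more Havcr1, and losartan mouse 3 at 10.76 sets the right end of every panel.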

How the data were processed

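The renal cortex of 10 mice was measured on Affymetrix mouse arrays, 1 per mouse, from 100 ng of total RNA per the labels' protocols. The deposited values are log2 levels of each probe set. Per the submitters' processing notes, the authors used RMA and Expression Console 1.1 from Affymetrix. The labels give separate mice, so p-values measure the spread between mice. Of 45101 probe sets 64 were controls, and 34945 had 1 gene symbol, which stood for 18193 genes; 932 had several symbols and 9160 none. Fits used limma 3.58.1 in R 4.3.3 with Benjamini-Hochberg adjustment over all genes and were tested on simulated data. Values were not scaled again, and levels of different probe sets are not comparable as amounts. Permutation p-values used 100000 resamples.

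The rule names the 8 genes, up to 3 genes per list of smallest p for drug and up to 3 for the slope on Wt1, the 10 genes most like Wt1 among those at or above the median level of 5.53, Havcr1 and Lcn2. Slc34a1, Adipoq, the genes most like Podxl and the genes with a called slope on Havcr1 were named after their values were seen. The 8 genes, lists and tests were chosen with earlier results of these data known. Arrays have no depth, and 5 mice per drug limit the precision. Alternatives covered level filter, probe set, scaling, variance model, array weights, block and arrays left out.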

Additional observations from a re-analysis of the deposited data

How the results depend on the processing

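Under every setting run, including each mouse left out, 0 genes passed for the drug difference in limma, with or without Wt1 as a term, also at an adjusted p under 0.10; without Wt1, 361 higher and 399 lower had an unadjusted p under 0.05. Differences that turned in sign did not pass under any setting. These were Podxl at 0.0026 and Synpo at 0.14 with the mean of all probe sets (0.12 for Synpo with Wt1 as a term), Podxl at 0.16 and Synpo at 0.28 on their other probe sets, Synpo at 0.01 with quantile normalization, Cdkn1c at -0.02 with array weights, and Wt1 at -0.0059 and Plce1 at 0.03 (0.03 with Wt1 as a term) without losartan mouse 3 and aliskiren mouse 1. The Nphs1 slope on Wt1 turned to 0.17 with array weights, to 0.25 without these mice and to 0.10 with Podxl in place of Wt1. The Cdkn1c slope on Havcr1 was -0.02 with the replicate block and -0.0047 without these mice. The causes were not tested.

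Leaving out 1 mouse moved the drug difference of Nphs1 from -0.23 to 0.0055, Wt1 from -0.12 to 0.16, Synpo from -0.18 to 0.11, Cdkn1c from -0.15 to 0.30 and Plce1 from -0.21 to 0.14, and with Wt1 as a term Nphs1 from -0.28 to 0.0088, Synpo from -0.17 to 0.03, Cdkn1c from -0.15 to 0.27 and Plce1 from -0.20 to 0.04. It moved the Nphs1 slope on Wt1 from -0.54 to 0.29, and the Cdkn1c slope on Havcr1 from -0.0046 to 0.11.

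Genes with a slope on Wt1 that passed numbered 0 under every scaling and filter tried, between 0 and 2 positive when 1 mouse was left out, 44 positive and 1 negative with the mean of Podxl and Synpo in its place, and 1 positive with Podxl, an anchor added after the values were seen, for which array weights gave 146 positive and 58 negative, and for which 0 passed with quantile normalization, an ordinary t statistic, the mean of probe sets, the 75th percentile of level, the replicate block and in 7 of 10 fits with 1 mouse left out. Slopes on Havcr1 passed for 1317 positive and 566 negative genes. Leaving out 1 mouse gave 20 to 1517 positive and 1 to 661 negative. The positive and negative counts were 518 and 104 at the 75th percentile of level, 698 and 257 with an ordinary t statistic, 489 and 81 with array weights, 460 and 43 with the mouse number as replicate block, 1 and 0 without losartan mouse 3 and aliskiren mouse 1, and 2154 and 1516 at an adjusted p under 0.10; the negative count was 334 with the level filter at the median and 1003 with the mean of probe sets. The Plce1 slope on Havcr1 did not pass with an ordinary t statistic (limma without moderation, adjusted p = 0.0521), array weights (0.0583), the replicate block (0.102) or without these mice (0.718).

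Deviations of same-numbered mice correlated between -0.18 and 0.38, and 2 of 5 losartan arrays correlated best with their own number. These values did not show a pairing of the samples by mouse number, and 5 numbers are too few to exclude one.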
